A study of Rattus norvegicus with 84 samples.

Results

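The 10 genes described here belong to the circadian clock, the daily timekeeper that nearly every cell carries: Clock and Npas2, Per1, Per2 and Per3, Cry1 and Cry2, Nr1d1 and Nr1d2, and Dbp. They were taken by name from the table of counts per gene, which lists 41919 genes, and all 10 passed the low-count filter in both subregions. The table holds 84 RNA-seq libraries from the nucleus accumbens, a reward region of the ventral striatum, of wild-type Long-Evans rats. In each of its 2 subregions, Shell and Core, there were 6 groups of 7 libraries, named in the labels Ext_Coc, Ext_Sal, Ctx_Coc, Ctx_Sal, HC_Coc and HC_Sal. Coc is cocaine and Ext is extinction, going by the design text of the study, which set extinction against other ways of abstaining from the drug. The labels do not spell out Sal, Ctx or HC, and these names are used here as given. They give no age, sex, dose or hour of tissue collection, so no value below can be tied to a time of day. They also do not say whether each library came from its own animal, so a p-value measures the spread between libraries, and that spread may be partly technical. The library names carry a series (3, 4 and F in Shell, and 1, 2 and F in Core), which was treated as a batch.

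In mammals CLOCK or its close relative NPAS2 pairs with BMAL1, the product of Arntl, and the pair switches on genes through E-box sequences. The PER and CRY proteins made from those genes return to the nucleus and block the pair, while the nuclear receptors REV-ERB alpha (Nr1d1) and REV-ERB beta (Nr1d2) repress Arntl. DBP is a clock-driven activator that binds D-box sequences, together with its relatives TEF and HLF. NPAS2 is prominent in the forebrain, and clock genes in the striatum of rodents are known to respond to dopamine and to psychostimulants.

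The promoters are shown first, because clock proteins act through short motifs there. RefSeq windows of the GRCr8 build matched 9 of the 10 genes. Each window is the 250 bases upstream of a start, on the strand of the gene and written 5′ to 3′, and position -1 is the base before the start. The windows were searched on both strands for the letters of the E-box CACGTG, the E-prime box CACGTT, the D-box TTATGTAA or TTATGCAA, the element bound by REV-ERB and ROR receptors TAGGTCA, and the cAMP response element TGACGTCA. A match is a description of letters and no more, no match says only that the letters are not in this window, and no match overlapped another. Capitals mark the matches, and CACGTT on the other strand reads AACGTG. Shown are the 3 genes with a match, Dbp, and the genes for TEF and BMAL1 because their levels are set against the 10 genes below. The windows are Per2 at chr9:99496994-99497243 (minus strand), Nr1d1 at chr10:84231813-84232062 and chr10:84229455-84229704 (both minus), Cry2 at chr3:98860438-98860687 (minus), Dbp at chr1:105312006-105312255 (plus), Tef at chr7:115206577-115206826 (plus) and Arntl, listed as Bmal1, at chr1:176766078-176766327 (plus).
Per2: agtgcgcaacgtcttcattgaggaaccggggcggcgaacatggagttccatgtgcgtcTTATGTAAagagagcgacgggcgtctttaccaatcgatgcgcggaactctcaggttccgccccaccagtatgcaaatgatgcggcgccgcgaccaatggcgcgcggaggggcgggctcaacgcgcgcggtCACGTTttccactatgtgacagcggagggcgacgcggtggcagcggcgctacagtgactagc
Nr1d1 upstream start: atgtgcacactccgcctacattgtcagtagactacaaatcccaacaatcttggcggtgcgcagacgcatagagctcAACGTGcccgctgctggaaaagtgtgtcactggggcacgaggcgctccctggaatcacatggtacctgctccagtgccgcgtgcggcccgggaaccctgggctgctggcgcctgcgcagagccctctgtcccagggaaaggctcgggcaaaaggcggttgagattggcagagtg
Nr1d1 downstream start: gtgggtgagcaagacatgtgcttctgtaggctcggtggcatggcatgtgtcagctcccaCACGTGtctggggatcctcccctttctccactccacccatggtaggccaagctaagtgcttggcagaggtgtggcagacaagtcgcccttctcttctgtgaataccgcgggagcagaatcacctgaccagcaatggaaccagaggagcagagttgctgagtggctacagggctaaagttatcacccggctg
Cry2: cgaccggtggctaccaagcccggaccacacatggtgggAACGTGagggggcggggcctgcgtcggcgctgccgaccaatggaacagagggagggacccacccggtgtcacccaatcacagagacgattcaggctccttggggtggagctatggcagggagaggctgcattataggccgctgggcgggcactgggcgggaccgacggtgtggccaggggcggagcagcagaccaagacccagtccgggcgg
Dbp: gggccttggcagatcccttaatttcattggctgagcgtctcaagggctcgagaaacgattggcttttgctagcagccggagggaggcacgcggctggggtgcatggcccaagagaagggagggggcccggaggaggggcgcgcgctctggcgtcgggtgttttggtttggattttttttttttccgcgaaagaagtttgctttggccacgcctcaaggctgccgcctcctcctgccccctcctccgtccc
Tef: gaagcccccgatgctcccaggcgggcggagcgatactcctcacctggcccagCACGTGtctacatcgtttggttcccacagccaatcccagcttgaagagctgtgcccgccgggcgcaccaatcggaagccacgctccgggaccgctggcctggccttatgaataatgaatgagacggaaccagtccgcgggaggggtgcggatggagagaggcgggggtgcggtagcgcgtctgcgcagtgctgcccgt
Bmal1: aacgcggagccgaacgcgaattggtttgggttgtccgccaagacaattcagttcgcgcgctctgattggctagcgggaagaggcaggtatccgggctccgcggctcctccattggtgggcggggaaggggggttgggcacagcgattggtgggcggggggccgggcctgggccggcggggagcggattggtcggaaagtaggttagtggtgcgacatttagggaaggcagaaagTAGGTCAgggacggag

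The window of Per2 held a D-box beginning at -192 and an E-prime box at -62. Nr1d1 has 2 annotated starts, and the upstream one had an E-prime box at -174 and the downstream one an E-box at -191. Cry2 had an E-prime box at -212. An E-box was therefore present in 1 of the 9 genes with a window, an E-prime box in 3 and a D-box in 1, and the other 2 motifs in 0. Over 33469 rat promoter windows of the same length, 5.59% held an E-box, 4.07% an E-prime box, 1.6% a D-box, 2.26% the REV-ERB and ROR element and 1.59% the cAMP response element. Among the partner genes, Tef had an E-box at -198 and Arntl a REV-ERB and ROR element at -16.

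Library totals ran from 13628550 to 22494761 counts, and the lowest count of any of the 10 genes in a library was 95, for Dbp in the library named 17-F. The counts held a variable background. Summed over 2033 olfactory and vomeronasal receptor genes, which are expressed mainly in the sensory tissue of the nose, it ran from 6.18 to 12.1 on the log2 scale of counts scaled to library size (CPM). The trimmed-mean scaling factor of a library followed it closely (r = 0.893 over 84 libraries). Shell libraries were spread less widely (6.61 to 11.2, median 9.97) than Core libraries (6.18 to 12.1, median 9.99), and the highest value belonged to the Core Ctx_Coc library 17-F. The authors' gene lengths span whole genes with their introns, so a share of each count scales with that background. That share was estimated from the receptor genes' rate per base, and its median over the 83 libraries other than 17-F was 1.65% for Dbp, 3.26% for Nr1d1 and 5.26% for Per1. It was 10.1% for Per3, 11.8% for Cry2, 12.3% for Nr1d2, 18.9% for Per2, 19.2% for Npas2 and 23.5% for Clock, and it reached 57.7% for Cry1. In single libraries of these 83 the share was as high as 89% for Cry1, 53.9% for Per2 and 49.05% for Clock. In 17-F the estimated background was larger than the whole count of Clock, Cry1 and Cry2, so the estimate fails there. The scaled log2 CPM of the 10 genes was lower in libraries with more background, with r between -0.90 and -0.18 over Shell libraries and between -0.95 and -0.74 over Core libraries. For this reason each comparison below is given as scaled, and where it differs also with the background level as a covariate. In RefSeq, 6 of the 10 genes overlap another annotated gene. Nr1d1 overlaps Thra, Clock and Npas2 overlap 2 loci each that carry only a LOC number, and Per2, Cry1 and Cry2 overlap 1 such locus each. How reads of overlapping genes were shared out depends on the strand setting, which is not given in the sources used here, so the counts of these 6 genes are uncertain to that extent.

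Divided by the length of the whole gene, the output gene Dbp stood highest, followed by Nr1d1 and Per1, and the activators Npas2 and Clock stood above Cry1 only. In FPKM (the authors' fragment counts per kilobase of gene and per library size), Dbp averaged 10.7 ± 2.39 and Nr1d1 5.59 ± 0.893 (SD, n = 84 libraries each here and for the next 8 genes). Per1, the period gene known for rapid induction, averaged 3.48 ± 0.58 FPKM. Per3, the period gene least needed for rhythm in mice, averaged 1.76 ± 0.209 FPKM. The cryptochrome Cry2 averaged 1.64 ± 0.211 FPKM, and Nr1d2 1.44 ± 0.184 FPKM. Per2, a core repressor, averaged 0.978 ± 0.115 FPKM, and the activator Npas2 0.941 ± 0.11 FPKM. Its relative Clock averaged 0.780 ± 0.0645 FPKM, and the cryptochrome Cry1, lowest of the 10, averaged 0.318 ± 0.0622 FPKM. Because the length includes introns, these levels rank genes by counts over the whole gene, not by mature transcript. That length was 4.95 kb for Dbp, 7.2 kb for Nr1d1 and 14.8 kb for Per1, against 84.1 kb for Clock and 179 kb for Npas2. In CPM, which is not divided by length, Npas2 had the highest mean of the 10 (172 ± 43.0), against 68.1 ± 20.3 for Clock and 56.7 ± 24.8 for Dbp.

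The order was clear at its ends and blurred in the middle. Dbp exceeded Nr1d1 in 84 of 84 libraries, Nr1d1 exceeded Per1 in 83 and Per1 exceeded Per3 in 84. Per3 exceeded Cry2 in 59 libraries, Cry2 exceeded Nr1d2 in 64 and Per2 exceeded Npas2 in 48, and in each of these 3 pairs of neighbours the difference in means was smaller than the SD of either gene or close to it. Nr1d2 exceeded Per2 in 82, Npas2 exceeded Clock in 76 and Clock exceeded Cry1 in 83. Relative to its mean, Dbp varied most between libraries (SD 22.3% of the mean, and 20% without 17-F) and Clock least (8.26%, and 8.11% without 17-F).

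**Figure D1:**
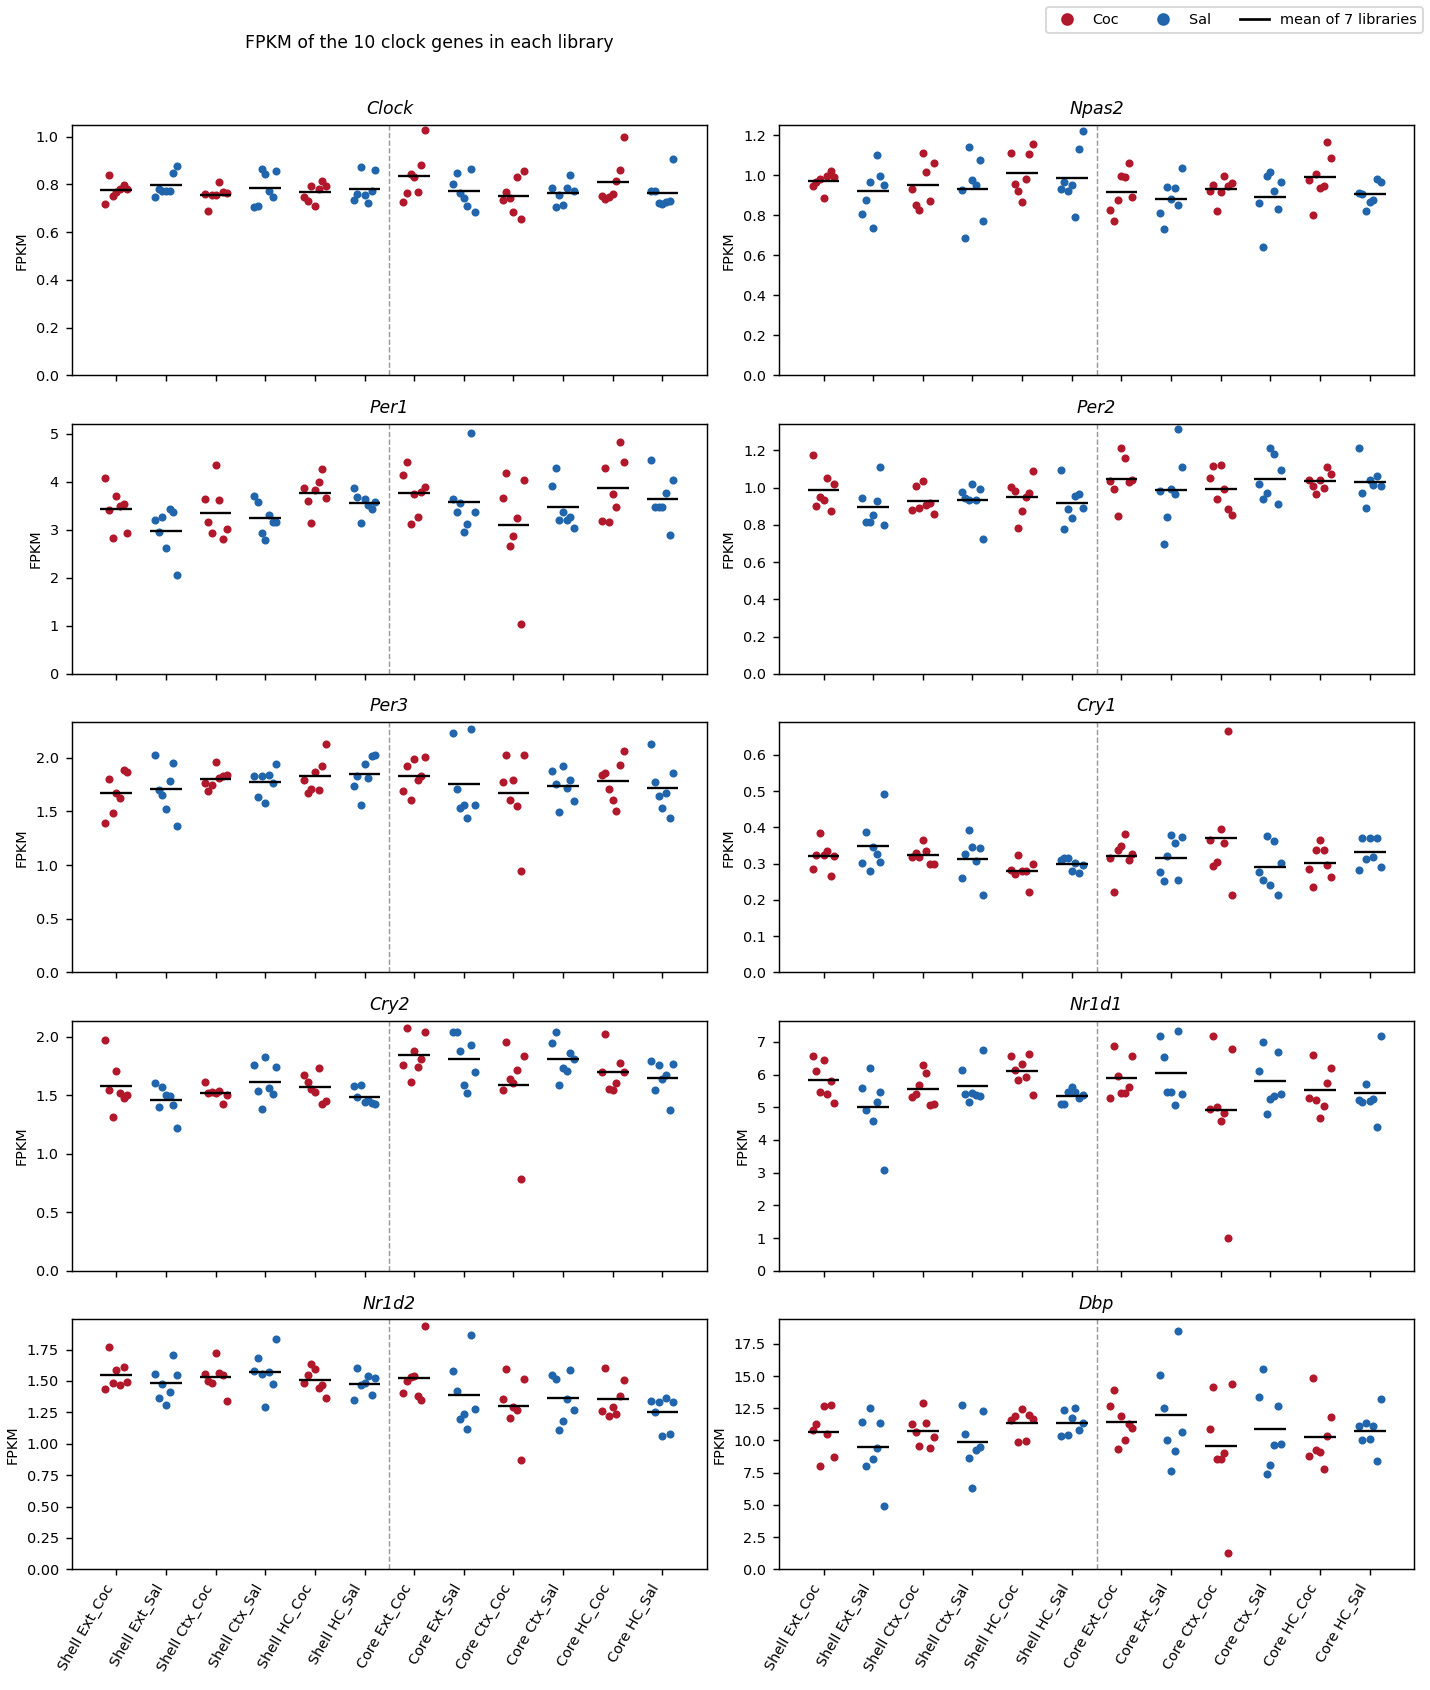
Level of each of the 10 clock genes in every library (authors' FPKM, vertical axis, 1 panel a gene) across 12 groups of 7 libraries, Shell on the left and Core on the right, with Coc in red, Sal in blue and black lines for group means. The ratio of highest to lowest group mean reaches 1.33, in Cry1, and the ranges of the 2 extreme groups overlap for every gene except Cry2. The Core Ctx_Coc library 17-F is the lowest point of Dbp at 1.26 FPKM.

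Across the 12 groups the means of each gene stayed within a narrow band. Among the activators, Clock ran between 0.836 ± 0.101 FPKM in Core Ext_Coc, the highest group mean, and 0.753 ± 0.0717 FPKM in Core Ctx_Coc, the lowest (SD, n = 7 libraries a group here and below). Npas2 had its highest group mean in Shell HC_Coc, 1.01 ± 0.11 FPKM, and its lowest in Core Ext_Sal, 0.884 ± 0.0994 FPKM. The highest over the lowest was a ratio of 1.11 for Clock and 1.15 for Npas2. Among the repressors, Per1 had its extremes in Core HC_Coc, 3.87 ± 0.649 FPKM, and Shell Ext_Sal, 2.98 ± 0.492 FPKM. Cry2 had them in Core Ext_Coc, 1.84 ± 0.167 FPKM, and Shell Ext_Sal, 1.46 ± 0.128 FPKM. Nr1d2 had them in Shell Ctx_Sal, 1.57 ± 0.168 FPKM, and Core HC_Sal, 1.25 ± 0.129 FPKM. Dbp had both in Ext_Sal groups, the lowest in Shell, 9.46 ± 2.59 FPKM, and the highest in Core, 11.9 ± 3.76 FPKM. The ratio of highest to lowest group mean reached 1.33, in Cry1. The ranges of the 2 extreme groups overlapped for every gene except Cry2, whose extreme groups were chosen by their values and lie in different subregions. The share of all genes whose extreme groups do not overlap was not computed, so this is not read as a trait of Cry2.

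The subregion comparison asked whether the clock genes differ between Shell and Core, over 42 libraries each. As scaled, Per2, Cry1 and Cry2, all repressors of the first loop, were lower in Shell, and 7 genes did not pass. Per2 had 22.6, 38.1 and 59.4 CPM in the lowest, median and highest Shell library, against 17.7, 40.8 and 82.3 CPM in Core. Cry2 had 24.5, 43.1 and 75.2 CPM in Shell libraries, against 11.2, 48.2 and 103 CPM in Core libraries. Cry1 had 16.3, 19.2 and 21.9 CPM in Shell libraries, against 15.2, 20.3 and 30.6 CPM in Core libraries. In all 3 the Core libraries reached above the Shell libraries, and the subregions overlapped. The lowest Core values of Per2 and Cry2 belonged to library 17-F, and without it the lowest were 31.9 and 32.1 CPM, above the lowest in Shell. The log2 difference, Shell minus Core, was -0.27 ± 0.08 for Per2 (SE, adjusted p = 0.00894 in edgeR's quasi-likelihood test with Benjamini-Hochberg adjustment over all genes), -0.35 ± 0.10 for Cry2 (adjusted p = 0.0104) and -0.14 ± 0.04 for Cry1 (adjusted p = 0.0125). The background of this comparison is 13.3% of 32145 genes called, which splits into 8.77% of genes lower in Shell and 4.56% higher. All 10 estimates were below 0, with a median of -0.18, beside a median of 0.05 over all genes tested. Without library 17-F, Per1 passed as well (-0.29 ± 0.10, adjusted p = 0.0314, against -0.26 ± 0.11 and adjusted p = 0.119 with it). Without the F series, 0 of the 10 passed (Per2 -0.22 ± 0.08, adjusted p = 0.0531, and Cry2 -0.29 ± 0.10, adjusted p = 0.053) and 3 had an unadjusted p under 0.05. DESeq2, run on all 84 libraries, called 3 of the 10 genes.

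The direction for most of the 10 depended on how the background was treated. With the background level as a covariate, where 29.5% of all genes were called higher in Shell and 11.8% lower, 7 clock genes were higher in Shell and 0 lower. REV-ERB beta stood out in size: Nr1d2 had 27.3, 38.7 and 69.3 CPM in the lowest, median and highest Shell library, against 10.9, 32.1 and 73.7 CPM in Core. The ranges overlapped. The lowest Core value was that of library 17-F, and without it the lowest was 22.0 CPM. Its log2 difference was 0.33 ± 0.04 with the covariate (adjusted p = 8.42e-11), against -0.02 ± 0.10 without it (adjusted p = 0.901). Dbp followed at 0.26 ± 0.07 (adjusted p = 0.00224), Nr1d1 at 0.22 ± 0.06 (0.000696) and Per3 at 0.18 ± 0.04 (0.00025). Per1 was at 0.14 ± 0.05 (adjusted p = 0.0188), Npas2 at 0.13 ± 0.04 (0.00417) and Clock at 0.11 ± 0.03 (0.00325). Under the same fit Per2 was at -0.04 ± 0.04, Cry1 at -0.06 ± 0.03 and Cry2 at 0.00 ± 0.04, none of which passed. Scaled to library totals instead, Nr1d2 was higher in Shell (0.16 ± 0.04, adjusted p = 0.000826) and Cry2 (-0.17 ± 0.04, 0.000229) and Per2 (-0.13 ± 0.04, 0.00551) lower. With the estimated background subtracted and 17-F left out, the calls were Nr1d2 higher (0.22 ± 0.05, adjusted p = 0.000112) and Cry1 (-0.30 ± 0.09, 0.00585), Cry2 (-0.15 ± 0.04, 0.0019) and Per2 (-0.14 ± 0.04, 0.0105) lower. The share of all genes called is not given here for library totals or for background subtracted. The calls under those settings are therefore not read as particular to the clock genes.

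**Figure D2:**
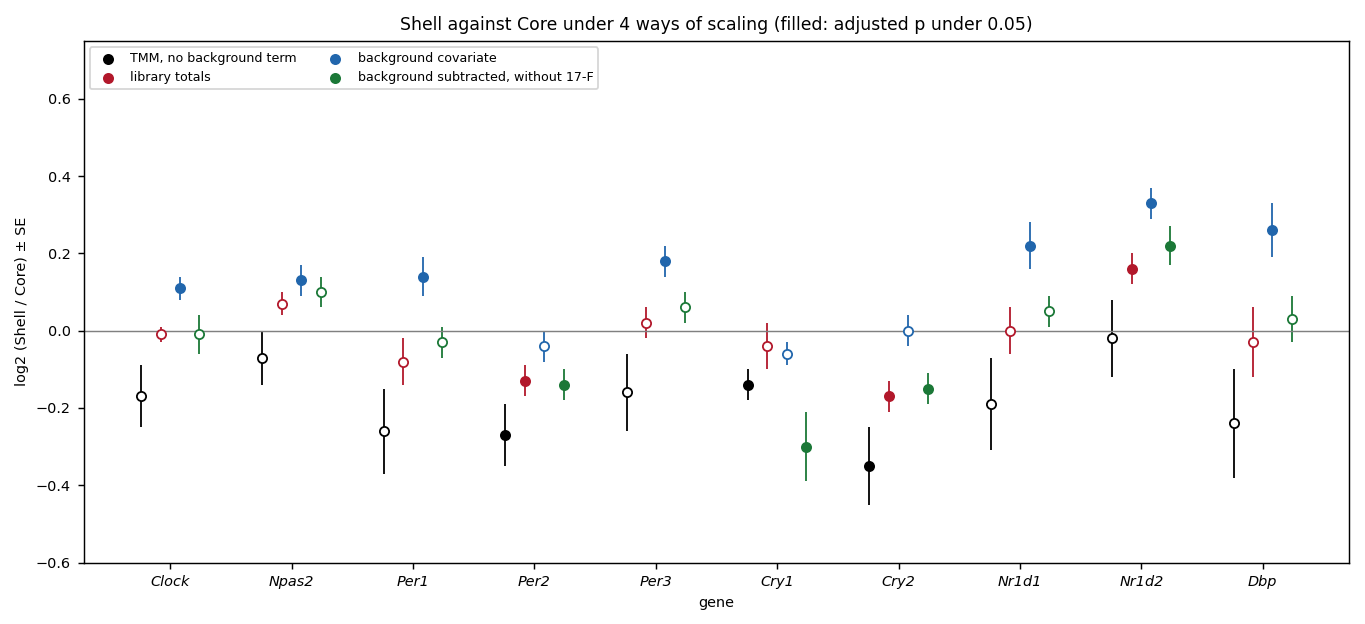
Log2 difference of each clock gene, Shell over Core (vertical axis, 1 position a gene, bars are SE, 84 libraries or 83 without 17-F), under 4 ways of scaling, with filled points past an adjusted p of 0.05. The level of the points shifts between scalings, while Nr1d2 is the highest of the 10 in each and Per2, Cry1 or Cry2 the lowest.

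The ends of the order stayed the same over the settings of this comparison, and the places between did not. The settings refit largely the same libraries, and one that only rescales libraries moves all genes nearly alike. They are therefore not independent support for the order. Per2, Cry1 and Cry2 are grouped here because they passed as scaled in these same data. Over 14 settings Nr1d2 had the highest of the 10 estimates in 14, and the lowest belonged to Per2, Cry1 or Cry2 in 14. Cry1 ranked 3 of 10 as scaled and 10 with the background covariate, and Dbp ranked 7 as scaled and 2 with it. Within the F series, the 1 series that holds both subregions, Nr1d2 was highest in 1 of 4 settings and Per2, Cry1 or Cry2 lowest in 4, with Npas2 highest as scaled and Dbp with the covariate. Over the 14 settings the log2 difference of Nr1d2 exceeded that of Cry2 by 0.32 to 0.37 and that of Per2 by 0.25 to 0.37. Over the 4 settings within the F series it did so by 0.33 to 0.42 and by 0.21 to 0.44. A ratio of 2 genes within a library needs no scaling, and 2 such ratios are given here, chosen after their values were seen and so with no test. The counts in a ratio still hold background, with a median share of 12.3% for Nr1d2, 11.8% for Cry2 and 18.9% for Per2. Its part in the ratios was not tested. The log2 ratio of Nr1d2 to Cry2 counts averaged -0.21 ± 0.17 in Shell libraries (-0.69 to 0.16) and -0.54 ± 0.15 in Core libraries (-0.84 to -0.04, SD, n = 42 each). The log2 ratio of Nr1d2 to Per2 counts averaged 0.02 ± 0.21 in Shell and -0.28 ± 0.25 in Core libraries. The subregions overlapped in both ratios, and their means lay farther apart than either SD. Within the F series, a series that holds both subregions, the ratio of Nr1d2 to Cry2 averaged -0.13 ± 0.14 over 12 Shell libraries and -0.45 ± 0.19 over 12 Core libraries (SD).

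Within the F series alone, where 0.962% of 33581 genes were called, 0 of the 10 clock genes passed in edgeR's test and 2 had an unadjusted p under 0.05. DESeq2 was not run there. The estimates were -0.52 ± 0.26 for Cry2, -0.41 ± 0.19 for Per2 and -0.27 ± 0.10 for Cry1, all at an adjusted p of 0.442. Nr1d2 and Per3 passed there, with the background covariate, as higher in Shell, both at 0.43. The share of all genes called in that fit is not given here. The numbered series hold 1 subregion each, so in them series and subregion cannot be told apart. Bulk tissue also leaves fewer cells of a type and less RNA per cell beyond separation. All 6 oligodendrocyte markers were lower in Shell, with a median log2 difference of -1.79 as scaled and -1.33 with the background covariate. Their summed level ran from 455 to 1923 CPM in Shell libraries (median 958) and from 176 to 6985 CPM in Core libraries (median 2671), and their part in the clock gene differences was not tested. Of the 7 markers of projection neurons, the main cell type of the tissue, 3 were lower and 1 higher as scaled, with summed medians of 1055 CPM in Shell and 1068 CPM in Core, which places neurons of the labelled tissue in both.

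Other genes of the clock were read from a list of 21 partners, regulators and outputs. As scaled, 5 were lower in Shell and 0 higher, with a median of -0.14 over the list. The largest of these was in Bhlhe41, which encodes the repressor DEC2 (-0.58 ± 0.14, adjusted p = 0.00132). Hlf, a relative of Dbp, was at -0.41 ± 0.09 (0.000321). The deubiquitinase gene Usp2, a known clock output, was at -0.20 ± 0.07 (0.0492), and Arntl at -0.09 ± 0.03 (0.0499). Once the background covariate was added, 6 of the 21 were higher and 3 lower, shares near the 29.5% and 11.8% of all genes in that fit. Bhlhe40, which encodes DEC1, led the higher ones at 0.41 ± 0.04 (adjusted p = 2.42e-12), with Csnk1e and Csnk1d, kinases of the PER proteins, at 0.18 ± 0.04 and 0.16 ± 0.04. Gsk3b, another clock kinase, was at 0.17 ± 0.03, Tef at 0.17 ± 0.06 and the CLOCK-interacting repressor Cipc at 0.14 ± 0.04. Timeless was lower at -0.23 ± 0.07 and Hlf at -0.11 ± 0.04, so Hlf was lower in Shell under both fits. Other lists held genes induced by signals that can also induce Per1. As scaled, 0 of 8 immediate early genes passed, 6 of 8 glucocorticoid-responsive genes were lower in Shell and 0 of 5 temperature-linked genes passed. Of all genes, 8.77% were lower in Shell and 4.56% higher as scaled. Counts with the background covariate are not given here for these lists, and their relation to Per1 was not tested.

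The comparisons the study was built for, Coc against Sal and one abstinence condition against another, called none of the 10 clock genes. There were 12 such comparisons in each subregion, 24 in all, and 240 tests of a clock gene. In edgeR's quasi-likelihood test 0 of the 240 passed under any of the up to 11 settings run, and 11 (4.58%) had an unadjusted p under 0.05. The background is the same, since 0% of all genes were called in each of the 24. The share of genes with an unadjusted p under 0.05 ran between 0.169% and 15.9%. DESeq2 called 0 clock genes and at most 3 genes of any kind in a comparison. A joint test of any difference among the 6 groups called 0% of genes in Shell and in Core. It left 1 clock gene in Shell and 0 in Core with an unadjusted p under 0.05, beside 1163 genes of all in Shell and 280 in Core. In each of the 18 pairwise comparisons the lowest and highest libraries of the groups overlapped for all 10 genes, where between 0.00325% and 0.251% of 30733 genes did not overlap. Standard errors had a median of 0.13 in Shell and 0.25 in Core on the log2 scale. Estimates more than 2 standard errors from 0 did not pass either, so differences of that size were not detectable at this spread. Scaled to library totals the medians were 0.09 in Shell and 0.11 in Core.

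Coc against Sal within a condition gave small estimates of mixed sign, given here for the 2 clock genes of lowest p in each comparison. In Shell Ext_Coc against Ext_Sal, Per2 was at 0.22 ± 0.12 (log2 difference ± SE, unadjusted p = 0.0781, adjusted p = 0.998 in edgeR's test) and Nr1d1 at 0.30 ± 0.17. Nr1d1 had 29.2, 40.6 and 53.5 CPM in the lowest, median and highest Shell Ext_Coc library, against 14.8, 31.9 and 45.0 CPM in Shell Ext_Sal. The Ext_Coc libraries sat somewhat higher, and the groups overlapped. In Shell Ctx_Coc against Ctx_Sal, Clock was at -0.18 ± 0.11 (adjusted p = 0.731) and Cry2 at -0.23 ± 0.14. In Shell HC_Coc against HC_Sal, Nr1d1 was at 0.29 ± 0.17 (adjusted p = 0.891) and Cry2 at 0.16 ± 0.14. Averaged over the 3 conditions, Nr1d1 was at 0.14 ± 0.10 and Per1 at 0.13 ± 0.10 in Shell. In Core Ext_Coc against Ext_Sal, Cry1 was at 0.17 ± 0.11 (adjusted p = 0.923) and Npas2 at 0.20 ± 0.17. In Core Ctx_Coc against Ctx_Sal, Per2 was at -0.36 ± 0.19 (adjusted p = 0.433) and Cry2 at -0.41 ± 0.25. In Core HC_Coc against HC_Sal, Npas2 was at 0.27 ± 0.17 (adjusted p = 0.82) and Clock at 0.22 ± 0.22. Averaged over conditions in Core, Npas2 was at 0.09 ± 0.10 and Cry1 at 0.04 ± 0.06.

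As scaled, the 10 genes shared a sign in each drug comparison within a condition in Core, and all or most of them did in Shell. In Core Ctx_Coc against Ctx_Sal all 10 estimates were below 0, with a median of -0.34 beside 0.03 over all genes. In Core Ext_Coc against Ext_Sal and in Core HC_Coc against HC_Sal all 10 were above 0, with medians of 0.18 and 0.18. Over all genes the medians there were -0.07 and -0.1. Averaged over conditions, 7 were above 0 and 3 below in Core. In Shell all 10 were below 0 in Ctx_Coc against Ctx_Sal (median -0.11). In Shell Ext_Coc against Ext_Sal and HC_Coc against HC_Sal 9 were above 0 and 1 below (medians 0.18 and 0.12). In Shell, library totals left 5 below 0 in Ctx_Coc against Ctx_Sal, and 7 and 6 above 0 in the other 2. Scaled to library totals, 8 of the 10 were below 0 in Core Ctx_Coc against Ctx_Sal (median -0.07, with Cry1 at 0.36 and Npas2 at 0.07). In each of the other 2 Core comparisons 8 were above 0 (medians 0.06 and 0.04). The background level moved with them: its group mean was 9.84 ± 1.83 in Core Ctx_Coc against 8.73 ± 1.51 in Core Ctx_Sal, 8.69 ± 1.74 in Core Ext_Coc against 9.15 ± 1.66 in Core Ext_Sal, and 8.85 ± 1.78 in Core HC_Coc against 9.64 ± 0.960 in Core HC_Sal (log2 CPM, SD, n = 7 each). Its part in the shared sign was not tested. The drug effect in Ctx minus that in HC had its lowest p in Cry2 in Shell (-0.40 ± 0.20, unadjusted p = 0.0499, adjusted p = 0.505 in edgeR's test) and in Npas2 in Core (-0.49 ± 0.24, unadjusted p = 0.0496, adjusted p = 0.351). Adding the background covariate gave -0.09 ± 0.12 for Cry2 in Shell and -0.10 ± 0.13 for Npas2 in Core. The drug effect in Ext minus that in HC had an unadjusted p of 0.63 in Shell and 0.343 in Core at the lowest.

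**Figure D3:**
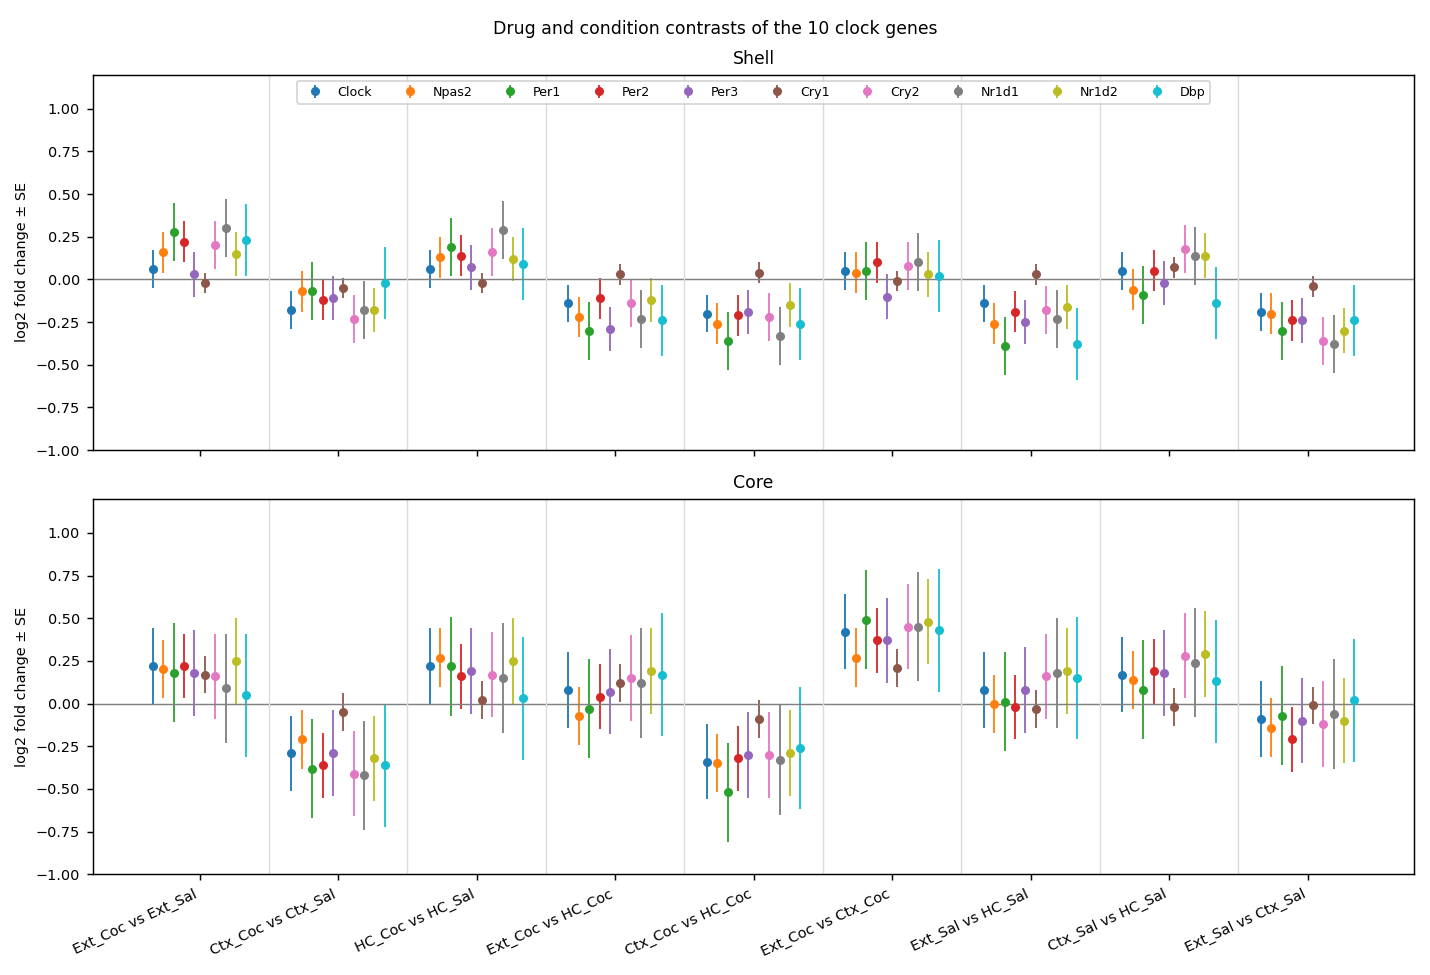
Log2 fold change of each clock gene (vertical axis, 1 colour a gene, bars are SE) in 9 pairwise comparisons of drug and condition (horizontal axis), Shell above Core, 7 libraries a group, with the first-named group over the second. No point passes an adjusted p of 0.05, and the 10 genes of a comparison shift together as scaled, most widely in the Core comparisons with Ctx_Coc.

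The condition comparisons in Shell held most of the low p-values, and none passed. Among the repressors, Per1 had 20.4, 43.7 and 49.1 CPM in the lowest, median and highest Ext_Sal library, against 42.7, 53.3 and 59.5 CPM in HC_Sal. The Ext_Sal libraries lay mostly below, and the groups overlapped. The log2 difference was -0.39 ± 0.17 (unadjusted p = 0.0249, adjusted p = 0.633 in edgeR's test), and -0.25 ± 0.09 with the background covariate (unadjusted p = 0.00765, adjusted p = 0.882). Npas2 in the same comparison was at -0.26 ± 0.12 (unadjusted p = 0.0411). In Ext_Sal against Ctx_Sal, Cry2 had 24.5, 38.4 and 47.5 CPM in Ext_Sal libraries, against 33.8, 47.8 and 75.2 CPM in Ctx_Sal libraries. These groups overlapped as well. The log2 difference of Cry2 was -0.36 ± 0.14 (unadjusted p = 0.0142, adjusted p = 0.509), that of Nr1d2 -0.30 ± 0.13 (0.0268) and that of Nr1d1 -0.38 ± 0.17 (0.0354). Their estimates became -0.19 ± 0.09, -0.13 ± 0.08 and -0.16 ± 0.08 with the background covariate. The background level averaged 10.2 ± 0.556 in Shell Ext_Sal, 9.73 ± 0.886 in Shell Ctx_Sal and 9.81 ± 0.347 in Shell HC_Sal, and its part in these values was not tested. Ctx_Sal against HC_Sal gave 0.18 ± 0.14 for Cry2 and 0.07 ± 0.06 for Cry1.

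Among Coc libraries in Shell, Per3 in Ext_Coc against HC_Coc was at -0.29 ± 0.13 (unadjusted p = 0.0357, adjusted p = 0.464 in edgeR's test). It had 38.7, 56.4 and 76.2 CPM in the lowest, median and highest Ext_Coc library, against 53.4, 65.4 and 97.6 CPM in HC_Coc, and the groups overlapped. Npas2 in that comparison was at -0.22 ± 0.12. In Ctx_Coc against HC_Coc, Npas2 was at -0.26 ± 0.12 (unadjusted p = 0.0369, adjusted p = 0.294) and Per1 at -0.36 ± 0.17 (unadjusted p = 0.0409). Npas2 had 132, 170 and 186 CPM in Shell Ctx_Coc libraries, against 147, 180 and 286 CPM in Shell HC_Coc libraries. The groups overlapped over most of the Ctx_Coc range. Under the fit with the background covariate Per3 was at -0.07 ± 0.08, Npas2 at -0.08 ± 0.10 and Per1 at -0.01 ± 0.09. Ext_Coc against Ctx_Coc in Shell gave 0.10 ± 0.12 for Per2 and -0.10 ± 0.13 for Per3.

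In Core Ctx_Coc against HC_Coc all 10 estimates were below 0, with a median of -0.31 beside 0.11 over all genes. Scaled to library totals, 9 were below 0, with a median of -0.10, and Cry1 was at 0.30. Npas2 had 80.3, 138 and 258 CPM in the lowest, median and highest Core Ctx_Coc library, against 130, 164 and 302 CPM in Core HC_Coc. The groups overlapped, and the lowest library was 17-F. The log2 difference was -0.35 ± 0.17 (unadjusted p = 0.0493, adjusted p = 0.449 in edgeR's test), and that of Per1 was -0.52 ± 0.29. These became -0.17 ± 0.09 and -0.26 ± 0.14 with the background covariate. In Ext_Coc against Ctx_Coc, Cry1 was at 0.21 ± 0.11 (adjusted p = 0.304) and Per2 at 0.37 ± 0.19. The other Core comparisons gave, at lowest p, 0.12 ± 0.11 for Cry1 and 0.19 ± 0.25 for Nr1d2 in Ext_Coc against HC_Coc. They gave 0.19 ± 0.25 for Nr1d2 and 0.16 ± 0.25 for Cry2 in Ext_Sal against HC_Sal, and 0.29 ± 0.25 for Nr1d2 and 0.28 ± 0.25 for Cry2 in Ctx_Sal against HC_Sal. In Ext_Sal against Ctx_Sal they gave -0.21 ± 0.19 for Per2 and -0.14 ± 0.17 for Npas2. Comparisons that use the same group share its libraries, so their estimates are not independent of one another.

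The series of libraries separated the clock genes where the conditions did not. In Core, 10 of the 10 genes differed among series 1, 2 and F in edgeR's test and 9 in DESeq2, where 77.6% of all genes did in edgeR's test. With the background covariate 5.8% of genes did, and the clock genes among them were Per1, Per3, Cry2, Nr1d2 and Dbp. Dbp averaged 12.7 ± 2.13 FPKM over the 12 libraries of Core series 1, 9.34 ± 1.27 FPKM over the 18 of series 2 and 11.1 ± 4.05 FPKM over the 12 of the F series (SD). In Shell, 0 of the 10 differed among series 3, 4 and F in edgeR's test and 0 in DESeq2, 3 had an unadjusted p under 0.05, and 0.734% of all genes differed. With the covariate 3.2% of genes did, with Per1, Cry2 and Nr1d1 among them. Cry2 averaged 1.61 ± 0.146 FPKM over series 3, 1.54 ± 0.121 FPKM over series 4 and 1.46 ± 0.117 FPKM over the F series (SD). Series was a term of every drug and condition fit.

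The next question was how the 10 genes varied together among libraries of one subregion, after group, series and background level were taken out of the log2 CPM. Of 45 pairs of clock genes, r was above 0 in 38 in Shell and 39 in Core, with medians of 0.373 in Shell and 0.58 in Core. Most genes of the table also had r above 0 with most of the 10. The share of all genes with r above 0 had a median over the 10 of 74.4% in Shell (35.5% for Cry1 to 80.25% for Nr1d1) and 81.05% in Core (33.8% for Cry1 to 85.3% for Cry2), and the median r over all genes ran from -0.08 to 0.25 in Shell and from -0.14 to 0.34 in Core. In a permutation test with p adjusted over all genes for each clock gene, 17 pairs passed in Shell and 27 in Core, all of them positive, and 17 passed in both. Such correlation is common among all genes here, and the share of 30732 genes that passed with a given clock gene was 28.6% in Shell and 43% in Core for Nr1d1, 28.4% and 25% for Dbp, 23.6% and 30.8% for Per1, and 23.4% and 46.7% for Cry2. It was 20.7% in Shell and 34.2% in Core for Per3, 11.5% and 31% for Clock, 9.37% and 26.2% for Nr1d2, and 7.94% and 22.2% for Npas2. Per2 had the lowest share in Core, with 2.56% in Shell and 0.205% in Core, and Cry1 the lowest in Shell, with 0% in Shell and 10.3% in Core. None of the 9 pairs of Cry1 with another of the 10 passed in either subregion, and its r with Dbp was -0.353 in Shell and -0.293 in Core. The pairs that passed in both, and some pairs with other clock genes, were checked under other settings in each subregion. Without the F series 21 of these checks no longer passed and 32 kept their call. With the background level and its square taken out 14 no longer passed and 38 kept it, and with library totals 10 and 42.

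Dbp and Tef, both activators that bind the D-box, varied closely together. They had r = 0.873 in Shell and r = 0.896 in Core (n = 42 libraries each, permutation p = 1e-05, the smallest 100000 resamples can give, adjusted p = 0.000741 and 0.000143). Spearman's rho was 0.845 in Shell and 0.819 in Core. In Shell 0.0163% of genes were as strongly tied to Dbp and in Core 1.15%. Without the 2 libraries farthest from the median r was 0.836 in Shell and 0.799 in Core, and without 17-F it was 0.697 in Core. Within series r lay at 0.862, 0.900 and 0.889 in Shell 3, 4 and F and at 0.881, 0.840 and 0.920 in Core 1, 2 and F. Values within series and without the 2 farthest libraries, here and below, kept the residuals of the fit to all 42 libraries. In Core that fit included 17-F, so these Core values are not free of it. Values without 17-F or without the F series came from a new fit.

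Nr1d1 and Per1 varied with Dbp as well. Nr1d1 and Dbp had r = 0.787 in Shell and r = 0.925 in Core (n = 42 each, permutation p = 1e-05), with rho at 0.755 and 0.84. Without the 2 farthest libraries r was 0.648 in Shell and 0.831 in Core. The F series carried much of the Shell value: without it r was 0.397 (permutation p = 0.0517), and within series it was 0.555, 0.670 and 0.936 in Shell 3, 4 and F. In Core 1, 2 and F it was 0.914, 0.691 and 0.969, and 0.639 without 17-F. Per1 and Dbp had r = 0.749 in Shell and 0.869 in Core (n = 42 each, permutation p = 1e-05), with rho at 0.666 and 0.764. Without the F series r was 0.425 in Shell and 0.581 in Core, and within Shell series 3 it was 0.359. Per1 and Per2, the 2 core period genes, had r = 0.601 in Shell and 0.646 in Core, with rho at 0.54 and 0.59 (permutation p of r = 3e-05 and 6e-05), and 0.325 and 0.362 without the F series, neither of which passed.

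**Figure D4:**
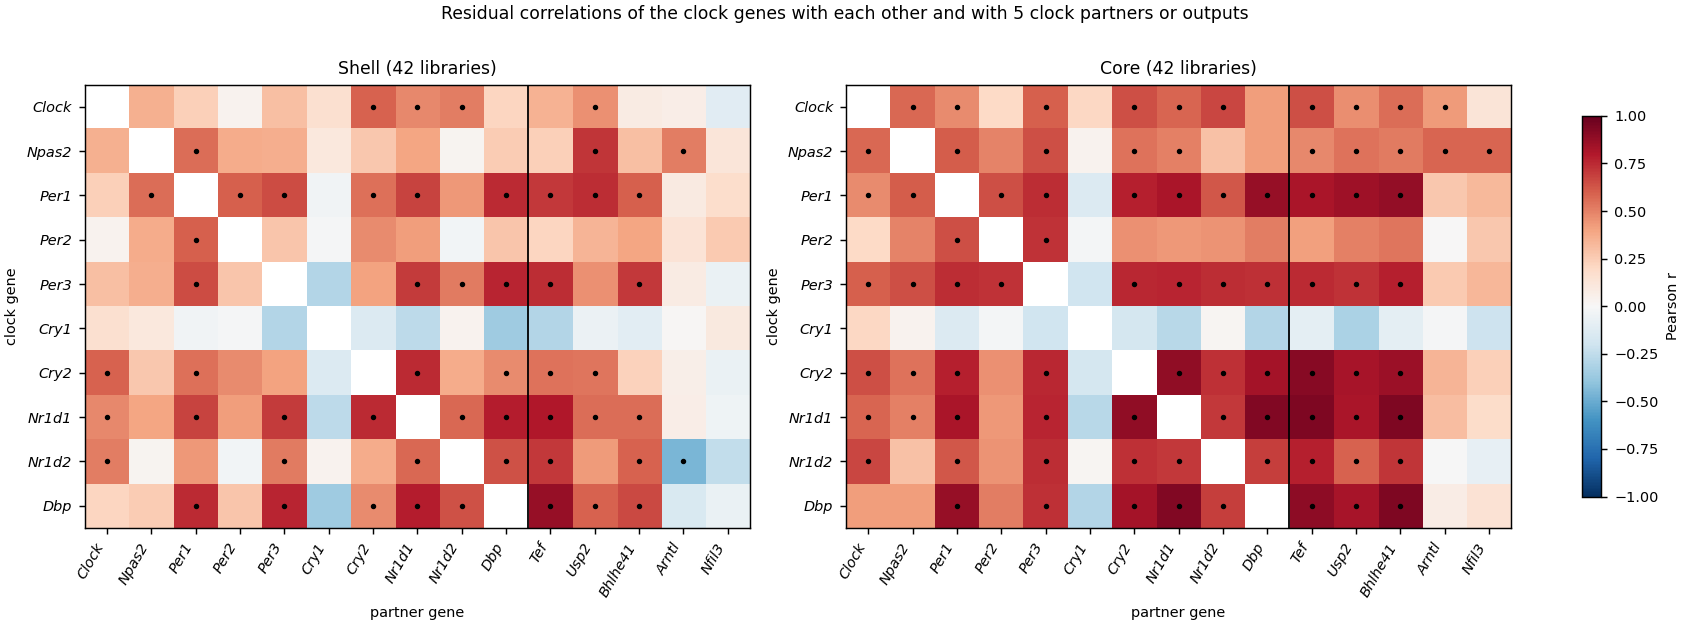
Pearson r between each of the 10 clock genes (rows) and the 10 genes plus Tef, Usp2, Bhlhe41, Arntl and Nfil3 (columns), Shell left and Core right, over 42 libraries each after group, series and background level were taken out. Dots mark pairs with an adjusted permutation p under 0.05, which are red (positive) except for Nr1d2 with Arntl in Shell, and the row of Cry1 has no dot in either subregion.

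The list of 21 other clock genes gave 210 pairings with the 10. In Shell 67 passed as positive and 1 as negative, in Core 98 and 4, and 55 were positive in both. Over all genes, the share passing with a given clock gene ran from 0% to 28.6% in Shell and from 0.205% to 46.7% in Core. The share of genes as strongly tied is given below for the pairs with Tef and Gsk3b only. Nr1d2 and Tef had r = 0.706 in Shell and 0.778 in Core, where 0.195% and 0.198% of genes were as strongly tied to Nr1d2. Per1 and Usp2 had r = 0.739 in Shell and 0.850 in Core. Clock and Gsk3b had r = 0.719 in Shell and 0.894 in Core, with 0.53% and 0.104% of genes as strong. Arntl, whose protein is the partner of CLOCK and NPAS2 and whose gene REV-ERB represses, is described with Npas2, Clock and Nr1d2 only. With Npas2 it had r = 0.514 in Shell and 0.583 in Core (n = 42 each, permutation p = 0.00317 and 0.00012, adjusted p = 0.0428 and 0.00391), with rho at 0.513 and 0.54 and with 0.415 and 0.531 without the 2 farthest libraries. Within series the r of Npas2 and Arntl ran from 0.425 to 0.667 in Shell and from 0.426 to 0.713 in Core, and without the F series it was 0.407 in Core (permutation p = 0.0986). With Clock, Arntl had r = 0.0685 in Shell and 0.426 in Core.

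With Nr1d2, Arntl had r = -0.457 in Shell (n = 42, adjusted permutation p = 0.0462), the 1 pairing with the list that passed as negative there. Nr1d1, the gene of the other REV-ERB, did not pass as negative with Arntl in Shell or in Core. The values below are those of Nr1d2 and Arntl. Spearman's rho was -0.474, r was -0.520 without the 2 farthest libraries, and within series it was -0.609, -0.394 and -0.453 in Shell 3, 4 and F. In Core r was -0.01 with rho at -0.04, and within series it was 0.297, -0.604 and 0.151 in Core 1, 2 and F. The Core value turned on the treatment of background: it was -0.565 with the background level and its square taken out (permutation p = 0.00046), -0.195 without 17-F, and 0.442 with no background taken out. In Shell the value with no background taken out was 0.02. The difference between Shell and Core in this pair was not tested. The 4 negative pairings in Core were Per1 with Rorb (r = -0.485) and Cry1 with Arntl2, Ciart and Timeless (r = -0.531, -0.516 and -0.507).

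**Figure D5:**
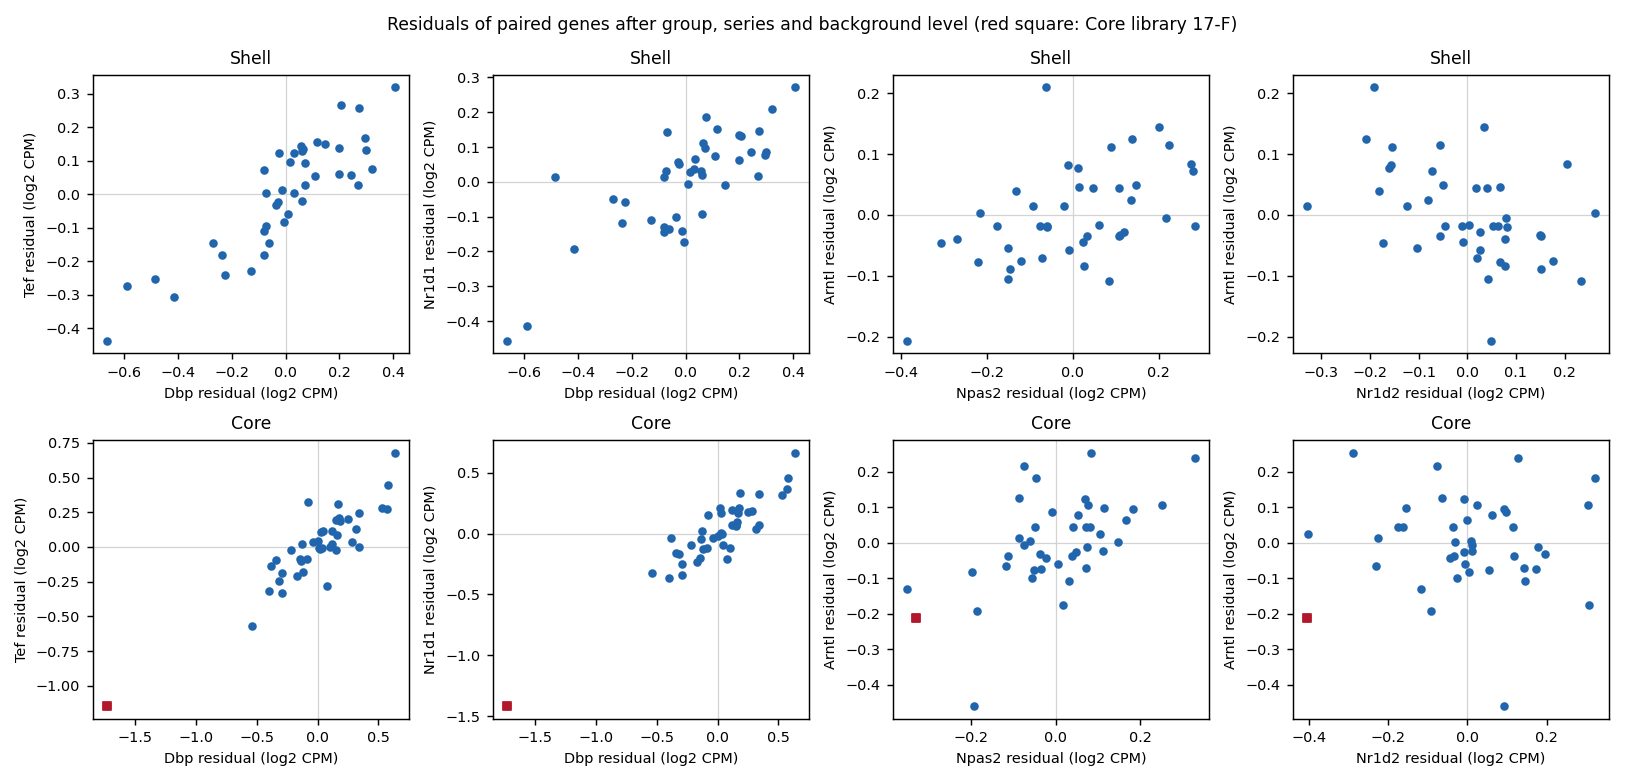
Residual log2 CPM of 4 pairs of genes (Dbp and Tef, Dbp and Nr1d1, Npas2 and Arntl, Nr1d2 and Arntl), Shell above Core, 1 point a library (42 each) after group, series and background level were taken out, with library 17-F as a red square. Dbp and Tef lie along a rising line in both subregions (r = 0.873 and 0.896), while Nr1d2 and Arntl fall in Shell (r = -0.457) and show no slope in Core (r = -0.01).

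Over all genes kept in both subregions with a mean log2 CPM of at least 1, those most like each clock gene (by the mean of its Shell and Core r) were rarely other clock genes. For Dbp they were Marcks, Ncdn and Chchd10, with a mean r of 0.909, 0.892 and 0.889. For Nr1d1 they were Ajm1, Dlg4 and Igsf8 (0.926, 0.923 and 0.923), and for Nr1d2 they were Zdhhc17, Nbr1 and Spag9 (0.789, 0.780 and 0.774). For Per1 they were Camkv, Zbtb38 and Dpf1 (0.880, 0.876 and 0.874), and for Per3 they were Ubr2, Evl and Kmt2a (0.881, 0.833 and 0.830). For Per2 the first was Per1 at 0.624, followed by Mcf2l and Coq8b (0.618 and 0.618). For Cry2 they were Tyro3, Klc1 and Atp9a (0.919, 0.904 and 0.901), and for Cry1 they were Gulp1, Tasp1 and Prkdc (0.613, 0.585 and 0.585), of which none passed in Shell. For Clock they were Cdk13, Nfat5 and Mib1 (0.864, 0.859 and 0.852), and for Npas2 they were Nedd4l, Slit3 and Caln1 (0.925, 0.895 and 0.892). Each mean r is over 42 Shell and 42 Core libraries.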

How the data were processed

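RNA was extracted with a Direct-zol kit and made into libraries with a SMARTer Stranded Total RNA-seq Pico kit, per the labels' protocols. The authors deposited whole-number counts per gene and FPKM values for 84 libraries, made with featureCounts on the mRatBN7.2 build, per the submitters' processing notes. The sources used here give no aligner, annotation or strand setting. The deposited FPKM values imply 1 length per gene, that of the whole gene. Counts were tested with edgeR 4.0.16 in R 4.3.3 (trimmed-mean scaling, quasi-likelihood test, Benjamini-Hochberg over all genes kept, threshold 0.05), with 1 fit of 42 libraries per subregion and series as a term, and 1 fit of 84 libraries for Shell against Core. DESeq2 1.42.0 was an alternative, with others given in the closing section. A log2 CPM used a prior count of 2. Correlations used 100000 resamples of libraries within a group. Scripts were checked on simulated data. The 10 genes and all gene lists (clock, inducible and cell type markers) were chosen with earlier results of these data known. Named besides the 10 are list genes past the threshold in Shell against Core, the 3 genes most like each clock gene, and in each contrast the 2 clock genes of lowest p. The values of 1 list gene are not reported here. Sequences come from RefSeq windows of GRCr8, whose coordinates were not mixed with those of the counts.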

Additional observations from a re-analysis of the deposited data

Results flagged for a closer look

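Each clock gene was checked in each group of 7 libraries for a highest or lowest library far from the other 6, by Dixon's gap test on log2 CPM. Of 120 groups 8 stood out, and chance flags about 1 in 20 groups. In 6 of them the low library was 17-F of Core Ctx_Coc, which has the highest background level of all libraries. In that library Dbp was at 1.62 log2 CPM (other libraries of the group 5.01 to 6.74) and Nr1d1 at 1.85 (4.65 to 6.20). Per1 was at 2.90 (5.03 to 6.49), Cry2 at 3.50 (5.20 to 6.37), Per3 at 3.99 (5.56 to 6.74) and Per2 at 4.16 (5.17 to 5.75). Dbp, Nr1d1 and Per1 had 95, 112 and 237 counts there. The other 2 were high values of Clock in Shell: 6.69 in library 24-F of Ctx_Sal (others 5.85 to 6.07) and 6.63 in library 6-F of HC_Coc (others 5.87 to 6.14). These libraries had the lowest background levels in Shell, 7.90 in 24-F and 6.61 in 6-F (log2 CPM). The part of background in these values was not tested.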

How the results depend on the processing

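The Shell against Core estimates depended on the treatment of background, a choice partly added after seeing the data, as were library totals. Each log2 difference that changed sign is given under its setting. With the background covariate the values were Clock 0.11, Npas2 0.13, Per1 0.14, Per3 0.18, Cry2 0.00, Nr1d1 0.22, Nr1d2 0.33 and Dbp 0.26. With the background level and its square the values were Clock 0.07, Npas2 0.09, Per1 0.07, Per3 0.12, Nr1d1 0.14, Nr1d2 0.28 and Dbp 0.16. With the replicate block and the background covariate the values were Clock 0.07, Npas2 0.09, Per1 0.07, Per3 0.08, Nr1d1 0.16, Nr1d2 0.27 and Dbp 0.17. With the background covariate and no 17-F the values were Clock 0.09, Npas2 0.11, Per1 0.09, Per3 0.15, Nr1d1 0.17, Nr1d2 0.30 and Dbp 0.20. With library totals the values were Npas2 0.07, Per3 0.02 and Nr1d2 0.16. With background subtracted and no 17-F the values were Npas2 0.10, Per3 0.06, Nr1d1 0.05, Nr1d2 0.22 and Dbp 0.03. With DESeq2 size factors the value was Nr1d2 0.02. With DESeq2 the value was Nr1d2 0.02. With no F series the value was Nr1d2 0.03. With the replicate block the value was Nr1d2 0.10. Within the F series, with the background covariate, they were Clock 0.19, Npas2 0.20, Per1 0.29, Per3 0.43, Cry2 0.10, Nr1d1 0.43, Nr1d2 0.43 and Dbp 0.55. Within the F series, with the background covariate and no 17-F, they were Clock 0.14, Npas2 0.16, Per1 0.09, Per3 0.31, Nr1d1 0.16, Nr1d2 0.35 and Dbp 0.23. Of the 10 genes, 3 lower and 0 higher became 0 lower and 7 higher with the background covariate, 1 and 6 with its square as well, 0 and 6 with the covariate and no 17-F, 0 lower with no F series, 2 lower with no low-count filter (Cry1 at an adjusted p of 0.0507), and 1 higher with library totals (2 lower) and with background subtracted (3 lower). The replicate block (30 pairs of shared title number) left 1 lower (Per2, -0.20), with Cry1 at an adjusted p of 0.145 and Cry2 at 0.0603, and with the background covariate 1 lower and 4 higher. Deviations of paired libraries over 200 genes correlated with a median of 0.20 (-0.319 to 0.572), against -0.01 for other pairings, 20 of 30 were over 0.1, and 6 of 30 matched their own number best, so not every pair passed 0.1 and the numbers were not taken as pairing. Within the F series 2 passed as higher with the background covariate, and 1 without 17-F as well. Of all genes, 8.77% were lower in Shell and 4.56% higher as scaled over all 84 libraries, and 11.8% and 29.5% with the background covariate. The share of all genes is not given here for the other settings. The counts under those settings are therefore not read as particular to the clock genes. Of the drug and condition estimates named, none of which passed, these changed sign. With no F series they were Npas2 in Core, Coc vs Sal average -0.02, Cry1 in Core, Coc vs Sal average -0.06 and Cry1 in Core, Ext_Coc vs Ext_Sal 0.00. With the background level and its square they were Cry2 in Core, Ctx_Coc vs Ctx_Sal 0.04, Nr1d2 in Core, Ctx_Sal vs HC_Sal 0.00 and Cry2 in Core, Ctx_Sal vs HC_Sal 0.00. With the background covariate they were Nr1d2 in Core, Ctx_Sal vs HC_Sal -0.03, Cry2 in Core, Ctx_Sal vs HC_Sal -0.03, Nr1d2 in Core, Ext_Sal vs HC_Sal 0.00, Cry2 in Core, Ext_Sal vs HC_Sal -0.01 and Clock in Core, HC_Coc vs HC_Sal -0.02. With library totals it was Cry1 in Core, Ext_Coc vs Ctx_Coc -0.22. Among correlations between genes, with library totals r was Clock and Cry2 in Shell 0.00 and Clock and Nr1d1 in Shell -0.08. Among correlations between genes, with library totals and the background level and its square taken out r was Clock and Cry2 in Core -0.15, Clock and Nr1d1 in Core -0.05, Per1 and Cry2 in Shell -0.09 and Cry2 and Dbp in Shell -0.32. Among correlations between genes, with no F series r was Cry2 and Dbp in Shell -0.17. Among correlations between genes, with the background level and its square taken out r was Cry2 and Dbp in Shell -0.11. Among correlations between genes, with no background taken out r was Nr1d2 and Arntl in Shell 0.02 and Nr1d2 and Arntl in Core 0.44. Between libraries of the same title number, with the background level regressed out, r was Npas2 0.49, Per1 0.06, Per3 0.23, Cry2 0.07, Nr1d1 0.11, Nr1d2 0.15 and Dbp 0.36. Between libraries of the same title number, without the 2 farthest pairs, r was Npas2 0.06. The causes were not tested. In 0 of the 24 drug and condition comparisons did a setting bring a clock gene past the threshold. Cry1, with a median background share of 57.7%, is the gene whose level these counts limit most.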

Other observations

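Shell and Core libraries of the numbered series share title numbers (1-k with 3-k and 2-k with 4-k), and over these 30 pairs it was asked whether a clock gene deviates alike in both subregions. With p adjusted over all genes, where 0.0683% passed, 0 of the 10 clock genes passed in a permutation test within group and series, and 0 had an unadjusted p under 0.05. Per2 had r = 0.227 (permutation p = 0.493, adjusted p = 0.917), with rho = 0.343, and r = 0.324 without the 2 pairs farthest from the median. With the background level regressed out its r was 0.507 (permutation p = 0.0528, adjusted p = 0.552). Cry1 had r = -0.467 (permutation p = 0.114) and Npas2 r = -0.04. Over all genes the median r was -0.08, and the background level itself had r = -0.318 between paired libraries (permutation p = 0.165).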
